A study of Saccharomyces cerevisiae with 16 samples.

Results

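The Ndc80 complex is the outer kinetochore complex of 4 subunits, encoded in budding yeast by NDC80 (YIL144W), NUF2 (YOL069W), SPC24 (YMR117C) and SPC25 (YER018C). These 4 genes were taken by name from the 6679 genes of the deposited table, in which NDC80 stands under its older name TID3. All 4 were measured in every library, and all 4 passed the filter on low values for footprints and for mRNA.

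The complex is a rod that ties chromosomes to spindle microtubules. The Ndc80 and Nuf2 proteins form the end that grips the microtubule, and the Spc24 and Spc25 proteins form the end that docks on the kinetochore base. In budding yeast meiosis the outer kinetochore is taken apart in prophase and rebuilt before the first division, and the supply of Ndc80 protein limits the rebuilding. Early in meiosis Ime1 and Ume6 switch on a long, 5′ extended NDC80 transcript whose upstream reading frames keep ribosomes from the NDC80 reading frame and whose transcription represses the NDC80 promoter. Later the transcription factor Ndt80 switches on the short, well translated NDC80 transcript.

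Cells of SK1, a yeast background that sporulates quickly and in step, were moved to sporulation medium and harvested 6 h or 3 h later. They carried a DBP1 deletion made with Cas9 (deletion) or were wild type for it (WT). DBP1 encodes a DEAD-box RNA helicase related to the translation initiation helicase Ded1. Libraries were made of ribosome footprints, the pieces of mRNA that ribosomes cover, and of mRNA fragments, after 1 min in 100 µM cycloheximide, a drug that halts elongating ribosomes. The groups were deletion at 6 h, WT at 6 h, deletion at 3 h and WT at 3 h, each with 2 footprint and 2 mRNA libraries, 16 in all. The deletion replicates were numbered 2 and 4 and the WT replicates 3 and 4. The labels do not tell whether replicates were separate cultures, and p-values therefore speak only of library spread, part of which may be technical.

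Values are RPKM, reads per kilobase of gene and scaled to library size, so they can be set side by side between genes but are shares of a library. Depth, inferred from the spacing of the RPKM values, was 4578411 to 6965133 reads per footprint library and 5645019 to 9145061 per mRNA library. DBP1 itself stood at 0.449 to 1.12 RPKM in footprints of the 4 deletion libraries, against 147 to 429 RPKM in the 4 WT libraries. DBP1 mRNA was 0.409 to 1.25 RPKM in the deletion and 32.3 to 161 RPKM in WT. Summed mRNA of 6 middle meiotic genes was 18754 to 20212 RPKM in the 4 libraries at 6 h and 336 to 972 RPKM in 3 libraries at 3 h. Summed mRNA of 6 early meiotic genes was 2231 to 2781 RPKM at 6 h and 9098 to 9630 RPKM at 3 h. The mRNA library labelled deletion 3 h replicate 2 went against its label, with sums of 18937 RPKM for the middle genes and 3022 RPKM for the early genes. It is therefore given apart below, and the deletion mRNA at 3 h rests on replicate 4 alone, whose spread was taken to be that of the other groups. Summed mRNA of 5 markers of haploid cells was 264 to 299.9 RPKM at 6 h and 84.7 to 101 RPKM at 3 h. That of 5 markers of dividing cells was 69.6 to 76.5 RPKM at 6 h and 85.7 to 103 RPKM at 3 h. The sums hide genes that went the other way. By limma at adjusted p under 0.05, mRNA was higher at 6 h in 3 of 5 haploid markers and lower in 1, in both strains. It was higher in 1 of 4 dividing-cell markers tested and lower in 2, in both strains. Of all 5720 genes tested, 14.8% were higher and 71.9% lower in the deletion, and 16.4% and 72.9% in WT. In footprints the haploid markers summed to 109 to 139 RPKM at 6 h and 38.1 to 47.3 RPKM at 3 h, with STE2, a pheromone receptor, listed at 0 in replicate 4 of both strains at 3 h, and the dividing-cell markers to 40.8 to 53.1 RPKM at 6 h and 66.6 to 84.3 RPKM at 3 h. The part of either marker list in the results on the Ndc80 complex was not tested.

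NDC80 was the member whose ribosome footprints changed most, while its mRNA did not pass the test. NDC80 footprints were 83.2 and 84.6 RPKM in the deletion at 6 h and 87.5 and 90.4 RPKM in WT at 6 h. At 3 h they were 4.84 and 5.82 RPKM in the deletion and 6.07 and 5.86 RPKM in WT. Every 6 h library thus stood far above every 3 h library, and the deletion libraries lay slightly below the WT libraries at each time. The reads behind these values were 971 and 848 in the deletion and 934 and 842 in WT at 6 h, and 68 and 62 in the deletion and 56 and 73 in WT at 3 h. Mean footprint RPKM was 15.7 times as high at 6 h as at 3 h in the deletion and 14.9 times as high in WT. On the log2(RPKM + 1) scale the rise was 3.75 (SE 0.15, adjusted p = 3.3e-07) in the deletion and 3.69 (SE 0.15, adjusted p = 3.3e-07) in WT by limma. In bulk samples a change in the number of cells of a type and a change in RNA per cell cannot be told apart.

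NDC80 mRNA was lower at 6 h by a margin that did not pass the test in either strain. It was 199 and 249 RPKM in the deletion at 6 h and 207 and 219.9 RPKM in WT at 6 h. At 3 h it was 266 RPKM in deletion replicate 4 and 259 and 272 RPKM in WT. The 6 h libraries all lay below the 3 h libraries, with deletion replicate 4 at 6 h the nearest to them. The log2 change of 6 h against 3 h was -0.26 (SE 0.17, 95% interval -0.66 to 0.15, adjusted p = 0.19) in the deletion and -0.31 (SE 0.14, 95% interval -0.64 to 0.02, adjusted p = 0.066) in WT. In WT it passed without deletion replicate 2 (-0.31, adjusted p = 0.015) and without deletion replicate 4 (-0.31, adjusted p = 0.014), which change only the pooled spread. The median gene changed by -1.36 in the deletion and by -1.38 in WT in mRNA, and by -0.997 in the deletion and by -0.959 in WT in footprints. Relative to that median NDC80 mRNA stood 1.10 higher at 6 h in the deletion and 1.06 higher in WT. After median-ratio scaling of the libraries, a scaling to a common typical gene, its change was 1.11 (adjusted p = 0.0025) in the deletion and 1.07 (adjusted p = 7.3e-04) in WT, so the direction of the NDC80 mRNA change depends on the scaling. The RPKM of the reading frame adds the mRNA of the long and the short NDC80 transcripts, and footprints on upstream reading frames were not counted here.

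**Figure D1:**
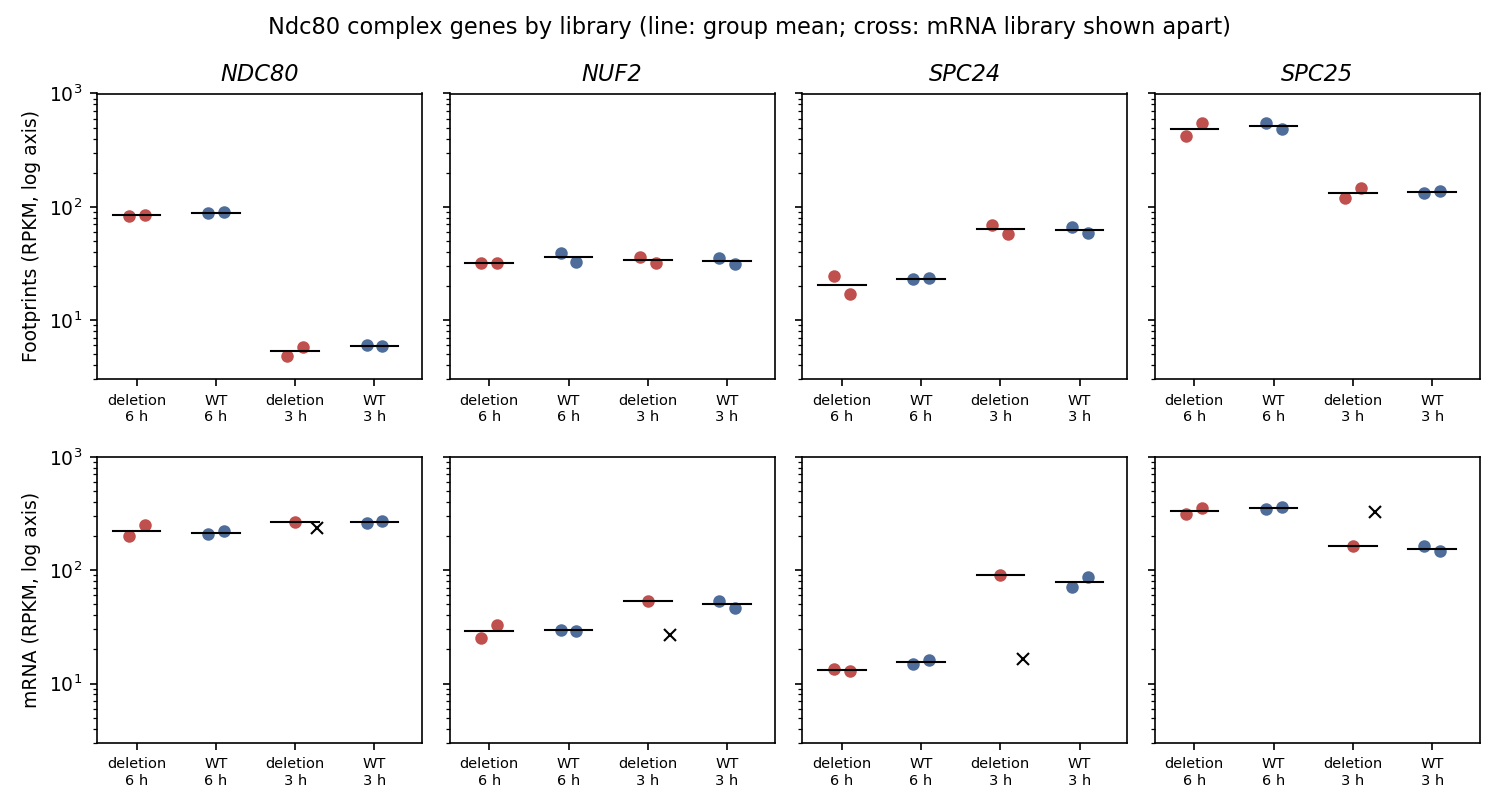
RPKM (log axis) of the 4 Ndc80 complex genes in footprint libraries (top row) and mRNA libraries (bottom row), for deletion and WT at 6 h and at 3 h. Points are libraries, lines are group means, and the cross is the mRNA library labelled deletion 3 h replicate 2, left out of the mean. NDC80 footprints stand at 83.2 to 90.4 RPKM at 6 h and at 4.84 to 6.07 RPKM at 3 h, while NDC80 mRNA stays between 199 and 272 RPKM.

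Translation efficiency is given here as footprint RPKM over mRNA RPKM of the same library number. For NDC80 the ratio was 0.419 and 0.340 in the deletion at 6 h and 0.423 and 0.411 in WT at 6 h. At 3 h it was 0.0219 in deletion replicate 4, and 0.0234 and 0.0216 in WT. The libraries of the 6 h groups thus stood far above those of the 3 h groups, with no overlap. The mean ratio was 17.3 times as high at 6 h as at 3 h in the deletion and 18.5 times as high in WT. Fitted over both kinds of library, the log2 rise was 4.01 in the deletion (SE 0.20, 95% interval 3.56 to 4.45, adjusted p = 2.5e-06) and 4.01 in WT (SE 0.18, 95% interval 3.61 to 4.40, adjusted p = 1.1e-06). Of 5291 genes NDC80 had the smallest p of this comparison in both strains. It had the 10th largest rise in the deletion and the 8th largest in WT. The median rise of all genes was 0.47 in the deletion and 0.50 in WT, and 95% of genes lay between -0.81 and 1.86 in the deletion and between -0.78 and 1.56 in WT. After median-ratio scaling the NDC80 rise was 3.54 in the deletion and 3.51 in WT. With the mRNA library labelled deletion 3 h replicate 2 put back it was 3.91 (adjusted p = 8.0e-05) in the deletion and 4.01 (adjusted p = 6.3e-05) in WT.

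Set against other genes, NDC80 ranked low in efficiency at 6 h and near the bottom at 3 h. At 6 h its ratio exceeded that of 498 and 298 of 5291 genes in the deletion, and that of 485 of 5288 and 423 of 5290 genes in WT. At 3 h it exceeded that of 16 of 5289 genes in deletion replicate 4, and of 16 of 5289 and 17 of 5288 genes in WT. The median ratio of all genes was 0.970 and 1.04 in the deletion at 6 h, 1.02 and 1.03 in WT at 6 h, 0.732 in the deletion at 3 h and 0.767 and 0.718 in WT at 3 h. NDC80 was thus below the median gene at both times. Its mRNA was above that of 86.9% to 89.7% of genes in all 7 of these libraries. Its footprints were above those of 71.6% to 72.6% of genes at 6 h and of 2.00% to 2.99% at 3 h.

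Of 5291 genes, 7 rose more than NDC80 in efficiency in both strains: TPO4, TPH3, MNE1, MES1, POP4, CNM1 and YFR012W-A. TPO4 encodes a polyamine transporter, MES1 methionyl-tRNA synthetase and POP4 a subunit of the RNA-processing enzymes RNase P and RNase MRP. The largest of these rises was that of TPO4, at 4.91 (SE 0.30) in the deletion and 4.78 (SE 0.27) in WT. NDC80 had a smaller SE than each of them, and its 56 to 73 footprint reads per library at 3 h can be set beside 9 to 30 for TPO4 and 45 to 76 for MES1. YFR012W-A held at most 3 footprint reads at 3 h and was not called (adjusted p = 0.097 in the deletion and 0.061 in WT).

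NUF2, the partner of NDC80 at the microtubule end, had footprints that did not pass the test and mRNA that fell. NUF2 footprints were 32.3 and 32.0 RPKM in the deletion at 6 h, 39.3 and 32.4 RPKM in WT at 6 h, 35.9 and 31.7 RPKM in the deletion at 3 h, and 35.6 and 31.2 RPKM in WT at 3 h. All of these overlapped, and the log2 change of 6 h against 3 h was -0.07 (SE 0.16, adjusted p = 0.69) in the deletion and 0.10 (SE 0.16, adjusted p = 0.58) in WT. NUF2 mRNA was 25.1 and 32.7 RPKM in the deletion at 6 h and 29.9 and 29.1 RPKM in WT at 6 h. At 3 h it was 53.6 RPKM in deletion replicate 4 and 53.8 and 45.9 RPKM in WT, so the times did not overlap. NUF2 mRNA fell, with log2 changes of -0.88 (SE 0.20, adjusted p = 0.0039) in the deletion and -0.73 (SE 0.16, adjusted p = 0.0032) in WT. After median-ratio scaling the changes were 0.46 (adjusted p = 0.11) in the deletion and 0.62 (adjusted p = 0.016) in WT. On that scale NUF2 footprints rose by 0.90 in the deletion and by 1.05 in WT, so for NUF2 too the direction depends on the scaling.

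SPC24, at the end that docks on the kinetochore, fell in footprints and fell further in mRNA. SPC24 footprints were 24.3 and 16.9 RPKM in the deletion at 6 h and 23.0 and 23.4 RPKM in WT at 6 h. At 3 h they were 69.8 and 57.9 RPKM in the deletion and 66.8 and 59.0 RPKM in WT. Its mRNA was 13.3 and 12.8 RPKM in the deletion at 6 h and 14.7 and 16.1 RPKM in WT at 6 h, against 91.2 RPKM in deletion replicate 4 at 3 h and 71.2 and 87.4 RPKM in WT at 3 h. Neither measurement overlapped between the times. Footprints fell, with log2 changes of -1.60 (SE 0.19, adjusted p = 1.1e-04) in the deletion and -1.40 (SE 0.19, adjusted p = 2.1e-04) in WT. The mRNA fell, with log2 changes of -2.71 (SE 0.18, adjusted p = 3.0e-05) in the deletion and -2.29 (SE 0.14, adjusted p = 9.0e-06) in WT. Both falls also passed after median-ratio scaling, at -0.63 and -0.44 for footprints and -1.38 and -0.94 for mRNA in the deletion and in WT.

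SPC25, the partner of SPC24, went the other way. SPC25 footprints were 425 and 548 RPKM in the deletion at 6 h and 549.8 and 487 RPKM in WT at 6 h. At 3 h they were 120.1 and 145 RPKM in the deletion and 131 and 137 RPKM in WT. Its mRNA was 315 and 356 RPKM in the deletion at 6 h and 350.1 and 361 RPKM in WT at 6 h, against 163 RPKM in deletion replicate 4 at 3 h and 162 and 146 RPKM in WT at 3 h. The times were again separate in both measurements. Footprints rose by 1.86 (SE 0.17, adjusted p = 2.4e-05) in the deletion and by 1.94 (SE 0.17, adjusted p = 2.0e-05) in WT. The mRNA rose by 1.03 (SE 0.15, adjusted p = 4.5e-04) in the deletion and by 1.20 (SE 0.12, adjusted p = 5.7e-05) in WT. After median-ratio scaling the rises were 2.85 in the deletion and 2.91 in WT for footprints, and 2.40 in the deletion and 2.59 in WT for mRNA. Genes for proteins that sit side by side in the complex were thus on opposite courses in RNA.

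By the test across all genes, NDC80 and SPC25 rose and SPC24 fell in footprints in both strains, 2 of 4 higher and 1 of 4 lower. Of all 5312 genes, 19.3% were called higher and 65.1% lower in the deletion (84.3% in all), and 20.1% higher and 63.3% lower in WT (83.4% in all). After median-ratio scaling the WT split over all genes was 1920 higher and 1707 lower, against 1068 and 3362 as deposited, and all 4 members were called. In mRNA SPC25 was called higher and NUF2 and SPC24 lower in both strains. There the shares of all 5720 genes were 14.8% higher and 71.9% lower in the deletion (86.7% in all), and 16.4% higher and 72.9% lower in WT (89.3% in all). In efficiency all 4 members were called higher in both strains, where 17.2% of 5291 genes were called higher and 1.8% lower in the deletion (19% in all), and 30.2% higher and 2.48% lower in WT (32.7% in all).

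The efficiency rises of the other 3 members stood 0.23 to 0.64 above that of the median gene. The ratio was 1.28 and 0.977 for NUF2, 1.82 and 1.32 for SPC24 and 1.35 and 1.54 for SPC25 in the deletion at 6 h. In WT at 6 h it was 1.32 and 1.11 for NUF2, 1.56 and 1.46 for SPC24 and 1.57 and 1.35 for SPC25. At 3 h deletion replicate 4 had 0.592, 0.635 and 0.890 for NUF2, SPC24 and SPC25, and WT had 0.661 and 0.680, 0.938 and 0.675, and 0.809 and 0.938 for the same genes. Each of these genes had more footprints per mRNA at 6 h than at 3 h, and none overlapped between the times. The log2 rises were 0.81 (adjusted p = 0.044) for NUF2, 1.11 (adjusted p = 0.022) for SPC24 and 0.83 (adjusted p = 0.034) for SPC25 in the deletion. In WT they were 0.83 (adjusted p = 0.019), 0.89 (adjusted p = 0.022) and 0.74 (adjusted p = 0.024). Less the median of all genes, they came to 0.33, 0.64 and 0.35 in the deletion and to 0.33, 0.38 and 0.23 in WT, beside 3.53 and 3.50 for NDC80. These 3 calls were lost in both strains after median-ratio scaling, and likewise without WT replicate 3, without WT replicate 4 or with the mRNA library labelled deletion 3 h replicate 2 put back. NDC80 was called in each of those cases.

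**Figure D2:**
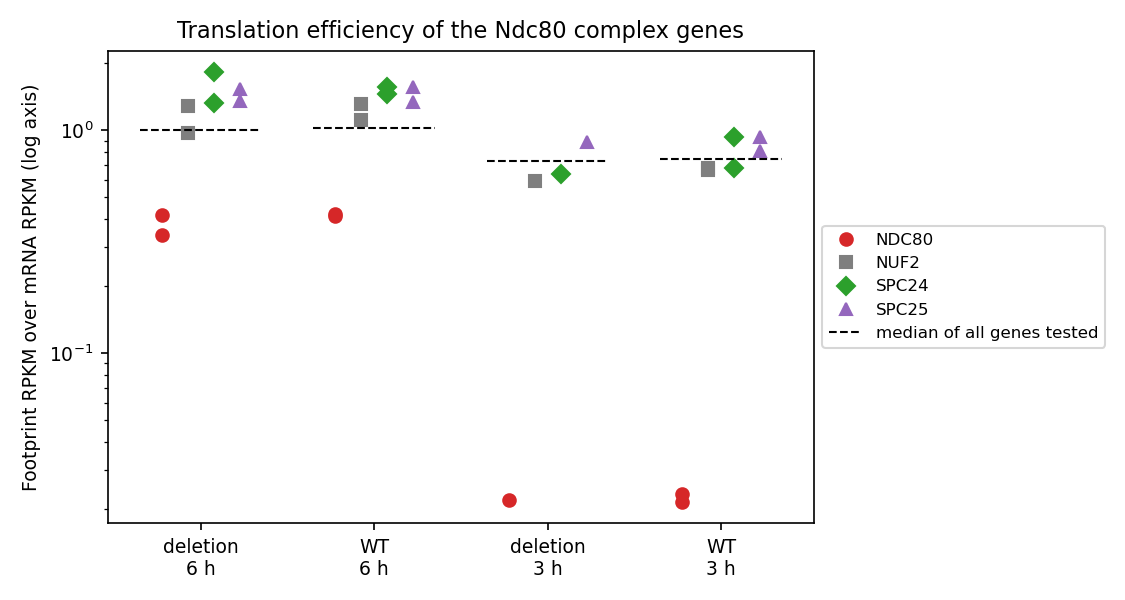
Footprint RPKM over mRNA RPKM (log axis) of the 4 genes for each library number, by strain and time, with the dashed line at the median of all genes tested. NDC80 lies at 0.340 to 0.423 at 6 h and at 0.0216 to 0.0234 at 3 h, below the other members and the median in every group.

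**Figure D3:**
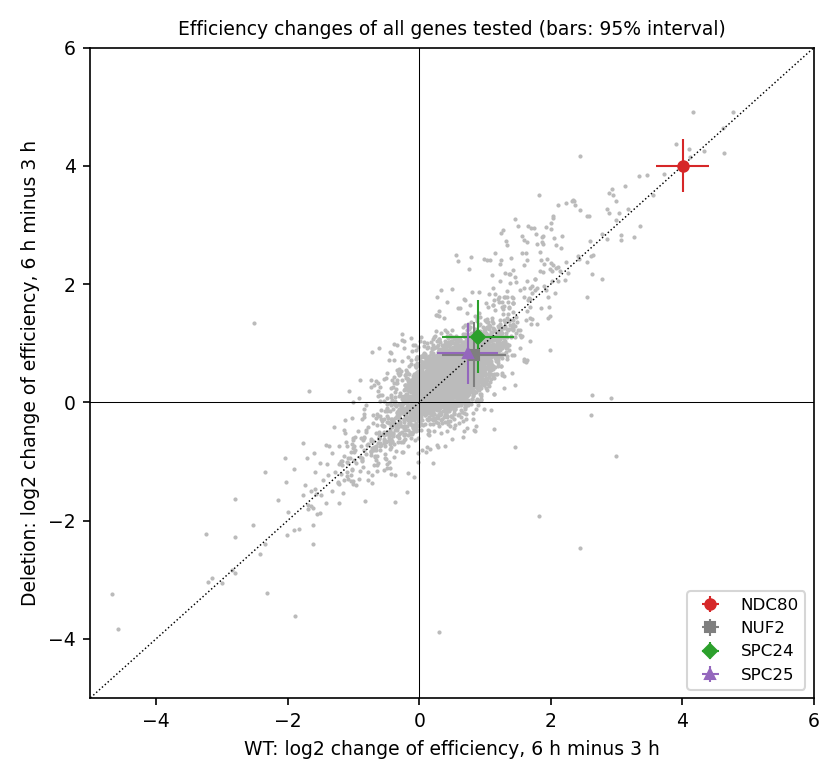
Fitted log2 change of efficiency, 6 h minus 3 h, in WT (horizontal axis) and in the deletion (vertical axis) for all genes tested, with 95% intervals for the members and the line of equal change dotted. NDC80 lies at 4.01 on both axes, and the other 3 members lie between 0.74 and 1.11 among the bulk of the genes.

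The gap between NDC80 and its partners was then compared within each library number. The log2 efficiency of NDC80 less the mean of the other 3 members averaged -1.79 ± 0.10 (SD, n = 4) at 6 h and -5.07 ± 0.07 (SD, n = 3) at 3 h, over both strains. An exact permutation test gave p = 0.057, two-sided, which is the smallest that 4 values against 3 can give. Adjusted over the 9 comparisons of this kind, which include those of the shares below, it stayed at 0.057.

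The order of the members by level differed between the kinds of library and between the times. In footprints the order at 6 h was SPC25, NDC80, NUF2 and SPC24, and at 3 h it was SPC25, SPC24, NUF2 and NDC80. In mRNA the order at 6 h was SPC25, NDC80, NUF2 and SPC24, and at 3 h it was NDC80, SPC25, SPC24 and NUF2. No 2 members overlapped in RPKM at either time, in either kind of library. NDC80 was thus the most abundant mRNA of the 4 at 3 h while holding the fewest footprints.

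As the complex is built with equal numbers of each subunit, each gene's share of the summed RPKM of the 4 was also taken. Over both strains together, NDC80 held 13.5% ± 1.20 of the footprints at 6 h and 2.39% ± 0.200 at 3 h (SD, n = 4 each). SPC24 held 3.45% ± 0.766 at 6 h and 26.9% ± 2.77 at 3 h, and NUF2 5.29% ± 0.475 at 6 h and 14.2% ± 1.15 at 3 h. SPC25 held most footprints at both times, with 77.8% ± 2.22 at 6 h and 56.5% ± 3.78 at 3 h. The 6 h and 3 h libraries did not overlap for any of these shares. Each exact permutation test gave p = 0.029, two-sided, the smallest that 4 against 4 can give, or 0.057 adjusted over the 9 comparisons. Without overlap these p-values can take no other value, so they add nothing to the separation. The highest member exceeded the lowest in footprints by 17.5 to 32.4 times at 6 h and by 21.6 to 24.95 times at 3 h, ranges that overlap. In mRNA NDC80 held 35.9% ± 1.68 at 6 h (SD, n = 4) and 47.7% ± 1.50 at 3 h (SD, n = 3), and SPC25 56.9% ± 1.52 at 6 h and 28.2% ± 1.59 at 3 h. For mRNA the exact permutation p was 0.057 for each gene, the smallest that 4 against 3 can give. The 4 shares of a library add up to the whole, so a rise of SPC25 lowers the shares of the others, and these tests are not independent. The NUF2 footprint share thus fell although its footprint RPKM did not pass the test.

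**Figure D4:**
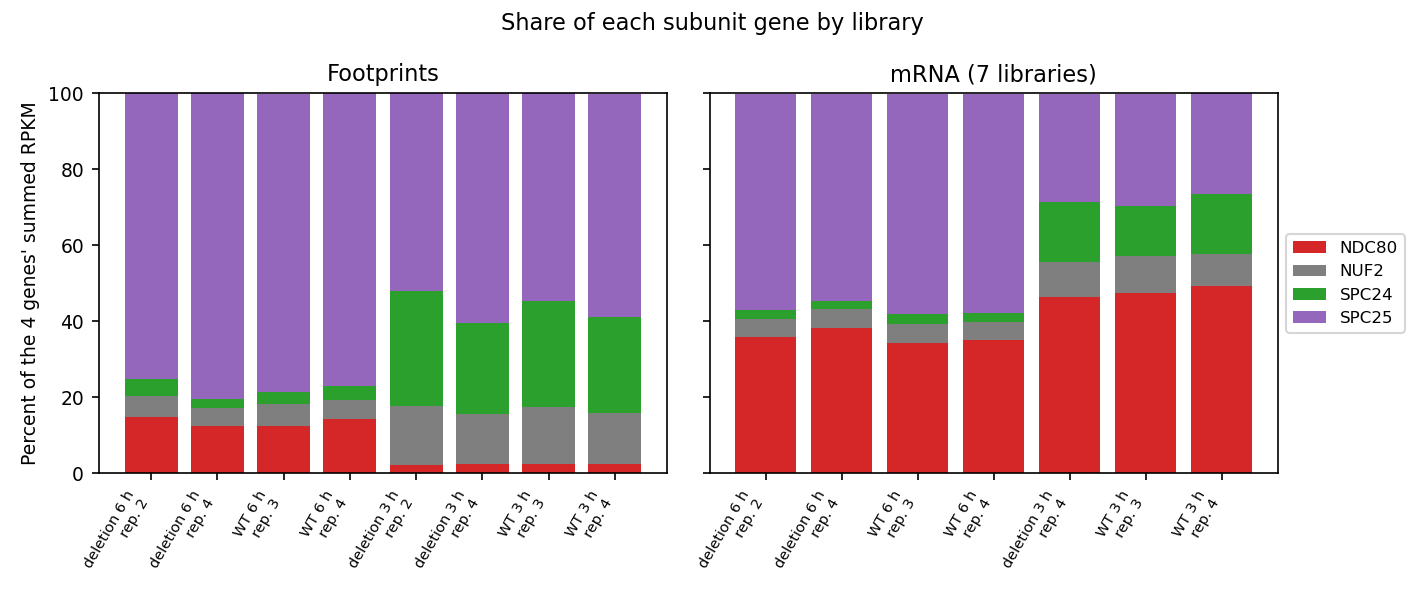
Share (percent) of each of the 4 genes in their summed RPKM, 1 bar per library, for 8 footprint libraries (left) and 7 mRNA libraries (right), with 6 h left of 3 h and deletion left of WT. NDC80 takes 12.4% to 14.7% of the footprints at 6 h and 2.10% to 2.53% at 3 h, while in mRNA it takes 34.4% to 38.3% at 6 h and 46.3% to 49.3% at 3 h.

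None of the 4 genes was called between deletion and WT. For NDC80 footprints the log2 change of deletion against WT was -0.08 (SE 0.15, 95% interval -0.42 to 0.25) at 6 h and -0.14 (SE 0.15, 95% interval -0.48 to 0.20) at 3 h. For its mRNA the changes were 0.06 (SE 0.14, 95% interval -0.27 to 0.39) at 6 h and 0.00 (SE 0.17, 95% interval -0.40 to 0.41) at 3 h. For its efficiency they were -0.14 (SE 0.18, 95% interval -0.54 to 0.26) at 6 h and -0.14 (SE 0.20, 95% interval -0.59 to 0.30) at 3 h. Over the 4 members, 3 measurements and 2 times, the 24 changes ran from -0.22 to 0.21, with 95% intervals that reached from -0.80 to 0.62. The smallest unadjusted p of the 24 was 0.17, so 0 were under 0.05, and the smallest adjusted p was 0.9988 by limma. Across all genes the share called in either direction was 0.0565% at 6 h and 0.0377% at 3 h in footprints, 0.035% and 0.0175% in mRNA, and 0.0189% at each time in efficiency.

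The time course of the members was compared between the strains directly. The NDC80 efficiency rise differed by 0.00 (SE 0.27, 95% interval -0.60 to 0.60) between deletion and WT, and its footprint rise by 0.06 (SE 0.21, 95% interval -0.42 to 0.54). Among the 12 differences over members and measurements, from -0.43 to 0.22, the smallest unadjusted p was 0.10, for SPC24 mRNA at -0.43 (SE 0.23, 95% interval -0.96 to 0.11). The share of all genes called for a difference of the time change was 0% in each measurement. Each interval belongs to 1 estimate and does not mark the smallest difference that would have been called. How large a difference would be called with 2 libraries a group, after adjustment over all genes, was not tested. The mRNA and efficiency differences rest on 1 deletion mRNA library at 3 h.

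The mRNA library labelled deletion 3 h replicate 2 had member values close to those of the deletion at 6 h. It held 233 RPKM of NDC80, 26.9 RPKM of NUF2, 16.4 RPKM of SPC24 and 324 RPKM of SPC25. The mean of the deletion at 6 h was 224 RPKM for NDC80, 28.9 RPKM for NUF2, 13.1 RPKM for SPC24 and 336 RPKM for SPC25. Set over this library, the 3 h footprints of replicate 2 gave ratios of 0.0208 for NDC80, 1.33 for NUF2, 4.26 for SPC24 and 0.371 for SPC25. Of the 4 ratios, that of NDC80 lay nearest to its value in the other 3 h libraries. This follows from the mRNA values, as NDC80 mRNA differed least between this library and deletion replicate 4 at 3 h (266 RPKM). It says nothing further about NDC80 efficiency. With this library in the fit, 0 of the 4 members were called in mRNA in the deletion by limma, the smallest unadjusted p being 0.071, for SPC24. In that fit 0 of all 5712 genes were called there, so the members' count says nothing about the members. SPC24 mRNA then changed by -1.51 (adjusted p = 0.29) and SPC25 mRNA by 0.54 (adjusted p = 0.32) in the deletion, and by -2.29 (adjusted p = 0.033) and 1.20 (adjusted p = 0.034) in WT.

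In genes of the neighbouring kinetochore complexes the efficiency changes were at most 1.23 on the log2 scale. The first list held the genes of the MIND complex, on which the Ndc80 complex docks, SPC105 for the KNL1 protein, and KRE28. It had 2 of 6 genes higher and 0 lower in efficiency in the deletion and 3 of 6 higher and 0 lower in WT. The median log2 rise of its genes was 0.64 in the deletion and 0.65 in WT, beside 0.47 and 0.50 over all genes. SPC105 rose by 0.64 (adjusted p = 0.042) in the deletion and by 0.73 (adjusted p = 0.012) in WT, and MTW1 by 0.74 (adjusted p = 0.037) in the deletion and by 0.67 (adjusted p = 0.024) in WT. Of 17 inner kinetochore genes 1 was higher in the deletion and 6 in WT, with none lower and medians of 0.475 and 0.65. CTF13, for a subunit of the complex that binds centromere DNA, led them with 1.08 (adjusted p = 0.014) in the deletion and 1.23 (adjusted p = 0.0037) in WT. Of 10 genes of the Dam1/DASH complex, the ring that couples Ndc80 to microtubules, 2 were higher in the deletion and 1 in WT, with none lower and medians of 0.50 and 0.07. Of all genes, 17.2% were called higher in efficiency in the deletion and 30.2% in WT, and nothing is read from list counts near those shares. After median-ratio scaling 0 genes of these 3 lists were called higher in efficiency and 1 inner kinetochore gene was called lower in WT. On that scale 124 of 5291 genes were called higher in the deletion and 123 in WT.

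Checkpoint, Aurora kinase and Ndc80-binding factors had 3 of 11 genes higher and 1 lower in efficiency in the deletion, and 6 higher and 1 lower in WT, with medians of 0.53 and 0.64. The shares of all genes were 17.2% higher and 1.8% lower in the deletion, and 30.2% and 2.48% in WT. STU2, for a microtubule polymerase that binds the Ndc80 complex, rose by 1.10 (adjusted p = 0.012) in the deletion and by 0.96 (adjusted p = 0.0081) in WT. MPS1, for a checkpoint kinase that binds Ndc80, rose by 0.89 (adjusted p = 0.041) in the deletion and by 1.01 (adjusted p = 0.011) in WT. BUB3, for a checkpoint protein, was the gene of this list that fell, with changes of -1.88 (adjusted p = 1.3e-04) in the deletion and -1.55 (adjusted p = 1.6e-04) in WT. After median-ratio scaling BUB3 changed by -2.28 in the deletion and by -1.97 in WT, and no gene of the list was called higher. No gene of these 4 kinetochore lists had an efficiency rise above 1.23 in either strain, against 4.01 for NDC80 in both.

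In footprints and mRNA these lists held genes of both directions. In footprints the MIND and Spc105 list had 1 gene higher and 1 lower in both strains, the inner kinetochore list 3 higher and 13 lower in both strains, and the checkpoint list 4 higher and 6 lower in both strains. The Dam1/DASH list had 3 higher and 6 lower in the deletion and 2 higher and 5 lower in WT. Over all genes 19.3% were higher and 65.1% lower in the deletion and 20.1% higher and 63.3% lower in WT, and nothing is read from list counts near those shares. In mRNA the MIND and Spc105 list had 0 higher and 5 lower in the deletion and 0 higher and 3 lower in WT. The inner kinetochore list had 2 higher and 13 lower in the deletion and 4 higher and 13 lower in WT, the Dam1/DASH list 2 and 7 in the deletion and 3 and 6 in WT, and the checkpoint list 3 and 6 in the deletion and 4 and 6 in WT. Over all genes 14.8% were higher and 71.9% lower in mRNA in the deletion, and 16.4% higher and 72.9% lower in WT. After median-ratio scaling the inner kinetochore list still had more genes lower than higher, with 4 higher and 6 lower in footprints and 4 and 9 in mRNA in the deletion, and 4 and 7 in footprints and 5 and 11 in mRNA in WT. The other 3 lists then had more genes higher than lower in both strains. In mRNA these were 4 higher and 1 lower for MIND and Spc105, 3 and 2 for Dam1/DASH and 6 and 3 for the checkpoint list in the deletion, and 5 and 1, 4 and 1, and 6 and 3 for the same lists in WT. In footprints they were 5 and 1, 5 and 3, and 5 and 4 in both strains. On that scale 1851 of 5312 genes were higher and 1659 lower in footprints in the deletion, and 1920 and 1707 in WT. In mRNA 1972 of 5720 genes were higher and 1758 lower in the deletion, and 2179 and 2050 in WT. Nothing is read from list counts near those shares either. No gene of these 4 lists was called between deletion and WT in any measurement at either time.

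**Figure D5:**
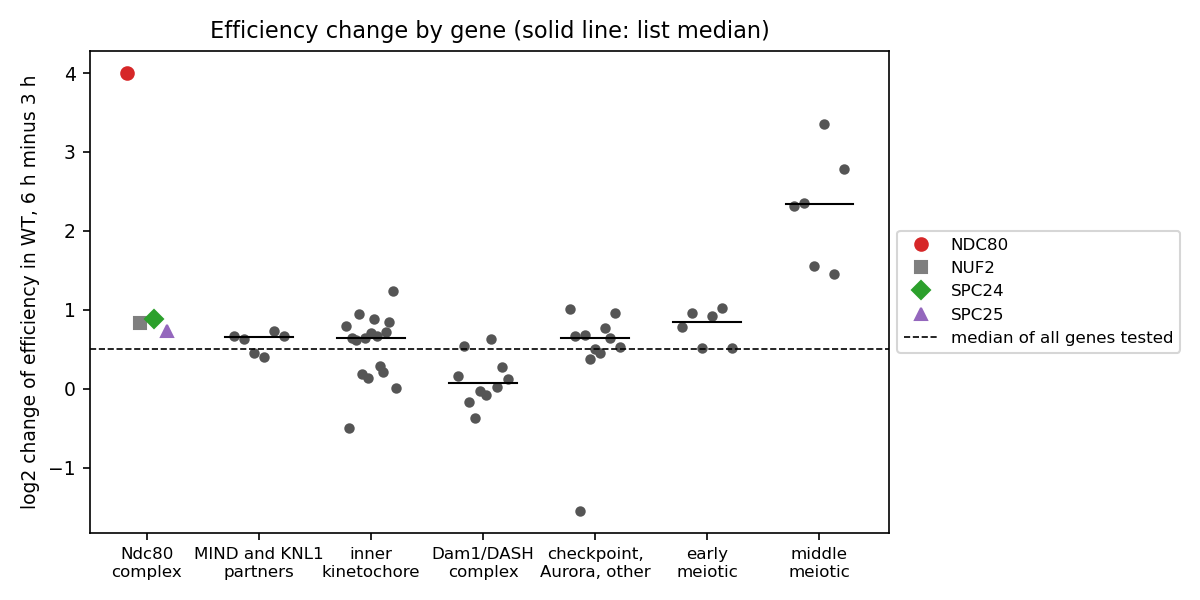
Fitted log2 change of efficiency in WT, 6 h minus 3 h, for the Ndc80 complex genes and for kinetochore and meiotic gene lists, 1 point per gene, with list medians as solid lines and the median of all genes tested dashed. NDC80 lies at 4.01 and the nearest kinetochore gene of another list, CTF13, at 1.23, while the 6 middle meiotic genes have a median of 2.34.

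Among regulators of NDC80 transcription, IME1 and NDT80 were on opposite courses. Of the 7 listed, 1 was called higher and 6 lower in mRNA in both strains by limma. The shares of all genes were 14.8% higher and 71.9% lower in the deletion, and 16.4% and 72.9% in WT. After median-ratio scaling 3 of the 7 were higher and 1 lower in the deletion, and 2 and 2 in WT. On that scale 1972 of 5720 genes were higher and 1758 lower in the deletion, and 2179 and 2050 in WT. UME6 mRNA was 38.2 and 37.6 RPKM in the deletion and 31.5 and 38.0 RPKM in WT at 6 h. At 3 h it was 77.1 RPKM in deletion replicate 4 and 83.2 and 90.3 RPKM in WT. IME1, the master regulator of entry into meiosis, had 236 and 152 RPKM of mRNA in the deletion at 6 h and 169.6 and 201 RPKM in WT at 6 h, against 1391 RPKM in deletion replicate 4 at 3 h and 1603 and 1668 RPKM in WT at 3 h. NDT80, the regulator of the meiotic divisions, had 1216 and 1503 RPKM in the deletion at 6 h and 1455 and 1522 RPKM in WT at 6 h, against 115 RPKM in deletion replicate 4 at 3 h and 96.2 and 61.3 RPKM in WT at 3 h. NDT80 mRNA rose by 3.55 (adjusted p = 4.0e-05) in the deletion and by 4.26 (adjusted p = 6.5e-06) in WT, and IME1 mRNA fell, with log2 changes of -2.87 (adjusted p = 6.4e-05) in the deletion and -3.14 (adjusted p = 1.1e-05) in WT. Both directions were the same after median-ratio scaling. Neither passed in efficiency, with changes of 1.07 (adjusted p = 0.092) and 0.57 (adjusted p = 0.38) in the deletion and 0.94 (adjusted p = 0.073) and 0.79 (adjusted p = 0.16) in WT for NDT80 and IME1.

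Middle meiotic genes, which Ndt80 switches on, also rose in efficiency, in 6 of 6 genes in both strains, with medians of 3.13 in the deletion and 2.34 in WT. After median-ratio scaling 6 of 6 passed in the deletion and 2 of 6 in WT. GIP1, a phosphatase subunit of sporulation, rose by 3.84 (adjusted p = 3.1e-05) in the deletion and by 3.35 (adjusted p = 2.7e-05) in WT, and CLB3, a cyclin of the second division, by 2.86 (adjusted p = 2.7e-05) in the deletion and by 2.79 (adjusted p = 8.8e-06) in WT. They rose in mRNA too, 6 of 6 in both strains, with medians of 4.25 in the deletion and 5.53 in WT. The deletion medians of mRNA and efficiency rest on 1 mRNA library at 3 h, replicate 4. Its summed mRNA of these genes was 972 RPKM, against 591 and 336 RPKM in WT at 3 h. GIP1 footprints at 3 h were low, at 4.38 to 7.63 RPKM. Early meiotic genes had 0 of 6 higher in efficiency in the deletion and 2 of 6 in WT, with medians of 0.59 and 0.85. The shares of all genes called higher in efficiency were 17.2% in the deletion and 30.2% in WT. SWI4 and HNT1 are also known to be made as 5′ extended transcripts in meiosis. SWI4, for a transcription factor of the mitotic cell cycle, rose in efficiency by 1.84 (adjusted p = 0.0023) in the deletion and by 2.07 (adjusted p = 4.6e-04) in WT, while its mRNA fell, with changes of -0.85 (adjusted p = 0.0011) in the deletion and -1.02 (adjusted p = 1.2e-04) in WT. After median-ratio scaling SWI4 mRNA changed by 0.49 in the deletion and by 0.34 in WT, and its efficiency rose by 1.44 in the deletion and by 1.62 in WT. HNT1 had efficiency changes of 0.22 (adjusted p = 0.61) in the deletion and 0.26 (adjusted p = 0.48) in WT.

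The genes most like each member were sought over the 8 group means of footprints and mRNA, among 5290 other genes, by the root mean square distance of centred log2(RPKM + 1) values. Nearest to NDC80 were POP4 at 0.30, MLP1, for a protein of the nuclear pore basket, at 0.30, PAU23 at 0.31, YLL053C at 0.35 and ALR1, for a magnesium transporter, at 0.36. Their efficiency rises were 4.91, 3.20, 2.77, 3.61 and 2.79 in the deletion and 4.17, 3.05, 2.86, 2.94 and 3.27 in WT, in the same order. PAU23 belongs to a family of near-identical genes among which reads may be split, so its values are uncertain. The other members were further from NDC80, with SPC25 at rank 112 (distance 0.81), NUF2 at rank 1227 (1.32) and SPC24 at rank 3908 (2.01).

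The other 3 members had nearer matches than NDC80 had. CKB1, for a subunit of casein kinase 2, YCG1, for a condensin subunit, and PHB2, for a prohibitin, were nearest to NUF2, all at 0.04. CNE1, for a calnexin of the endoplasmic reticulum, at 0.06, and IMD3, for an enzyme of GTP synthesis, and FMP25, both at 0.07, were nearest to SPC24. CLB5, for an S phase cyclin that also acts in meiosis, at 0.04, and ISR1 and YML009W-B, both at 0.05, were nearest to SPC25. No member was among the nearest genes of another member. None of the 4 genes overlaps its nearest annotated neighbour on either side in RefSeq. Overlap with other features of the submitters' annotation or with extended transcripts was not tested.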

How the data were processed

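Sporulating SK1 yeast gave 16 libraries, with footprints cut at 28 to 31 nt and mRNA pieces at 50 nt, per the labels' protocols. The authors deposited RPKM values for 6679 genes in 1 table. Per the submitters' processing notes, the tools were CASAVA, bcl2fastq 2.17 and Bowtie2, without a role for each. For the counter, strand setting, genome build and annotation the answer is: not given in the sources used here. The members and gene lists were chosen with earlier results of these data known. Members were matched by name, 3 directly and NDC80 by its RefSeq synonym (assembly R64).

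Whole reads were recovered from the RPKM steps within 0.02 of a read, taking RefSeq gene length less 60 bases, which held for 5229 of 5993 genes and for all 4 members. With the smallest fitting length for the rest, 6496 of 6679 genes gave whole reads in all libraries. No molecular identifiers were available here, so the reads may include amplification copies. They speak of counting error only, and may understate it. The 7 replicate pairs that matched their labels were no duplicates: over genes with at least 20 summed reads their mean chi-square statistic per gene was 3.81 to 52.6.

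Genes averaging at least 5 RPKM were tested on log2(RPKM + 1), a scale that understates the change of low genes. The test was limma 3.58.1 in R 4.3.3 with an intensity trend, two-sided, with Benjamini-Hochberg adjustment over all genes and a threshold of 0.05. Each fit held the means of the 4 groups. Efficiency was the footprint change minus the mRNA change in 1 model of both kinds. The mRNA library labelled deletion 3 h replicate 2 was left out. Steps were tested on simulated data. Shares were compared by exact permutation tests (scipy 1.17.1).

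Named genes were the 4 members, up to 4 genes of smallest p per list, and the genes nearest in pattern (5 for NDC80 and 3 for each other member). Genes with larger efficiency rises than NDC80 were named after their values were seen. Alternatives used another pseudocount (5 RPKM), no filter, median-ratio scaling, no trend, the omitted library, efficiency per library number, a replicate block, and fits lacking 1 replicate. A limma-voom fit on the recovered reads was chosen after seeing the data. No sequences are shown, and the planned sequence description was not run. Plots used matplotlib 3.10.9 and Python 3.11.15.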

Additional observations from a re-analysis of the deposited data

Results flagged for a closer look

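SPC25 mRNA stood at 324 RPKM in the library labelled deletion 3 h replicate 2, a library outside the main comparisons. That is above the 163 RPKM of deletion replicate 4 and the 146 to 162 RPKM of WT at 3 h. Its log2 values over genes, which are not independent replicates, had a correlation of 0.991 with deletion replicate 2 at 6 h and of 0.709 with deletion replicate 4 at 3 h. The mean chi-square statistic per gene of the reads was 12.1 for the first of these pairs and 959.6 for the second. How the library came by this profile was not tested.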

How the results depend on the processing

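NDC80 efficiency was called higher at 6 h in every alternative that gave a value, with rises of 3.36 to 4.23 in the deletion (11 alternatives) and 3.41 to 4.20 in WT (12 alternatives), and adjusted p-values of 1.7e-06 to 0.0026 and 1.0e-06 to 0.0175 by limma. The number of members called in efficiency was 4 in each strain. It was 1 in each strain after median-ratio scaling and 1 in each with the omitted mRNA library, and with 1 replicate left out it was 1 to 3 in the deletion and 1 to 4 in WT. With that library the members called in mRNA in the deletion numbered 0, as did all genes called there (0 of 5712), and the SPC24 efficiency change there was -0.091. After median-ratio scaling NDC80 mRNA changed by 1.11 in the deletion and 1.07 in WT, NUF2 mRNA by 0.46 and 0.62, and NUF2 footprints by 0.90 in the deletion. NUF2 footprints in the deletion ranged from -0.15 to 0.012 with 1 replicate left out. NDC80 mRNA in WT changed by -0.32 to -0.31 with 1 replicate left out, and passed without deletion replicate 2 or 4.

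Same-numbered libraries of a strain at both times were checked for shared deviations from their group means. The correlations were 0.24 and -0.04 for footprints of the deletion and of WT and 0.05 for WT mRNA. The main fits took no pairs because the labels do not tell what a replicate number shares. Whether the 0.24 in the deletion comes from a shared replicate effect was not tested. With a replicate block 2 members were called in efficiency in the deletion, NDC80 mRNA in WT changed by -0.31 (adjusted p = 0.019), and the difference in the NDC80 efficiency rise between strains was -0.16. No paired analysis was possible between strains at 1 time because they share only replicate number 4.

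NDC80 changes between strains, all near 0 and not called, turned sign in several alternatives. The difference in the efficiency rise was -0.048 with a pseudocount of 5, -0.093 with the omitted library, -0.11 per library number, and -0.26 to 0.038 with 1 replicate left out. The NDC80 mRNA change at 3 h was -0.012 after median-ratio scaling, -0.091 with the omitted library and -0.032 to 0.039 with 1 replicate left out. With 1 replicate left out the NDC80 mRNA change at 6 h was -0.10 to 0.22, the efficiency change at 6 h -0.29 to 0.0076, and the difference in the footprint rise -0.042 to 0.16.

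Counts over all genes moved too. In efficiency 1006 genes were called in the deletion and 1729 in WT. After median-ratio scaling these were 241 and 288, with the omitted library 51 and 41, without WT replicate 3 or 4 154 in the deletion and 18 and 57 in WT. Without deletion replicate 2 they were 1721 in the deletion and 2892 in WT, and without deletion replicate 4 they were 2898 in WT. Without deletion replicate 4 no deletion mRNA at 3 h is left, so its mRNA and efficiency have no value. The causes were not tested. The 56 to 73 NDC80 footprint reads per library at 3 h limit precision there.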
